A study of Homo sapiens with 6 samples.

Results

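The genes described here encode the sliding clamp PCNA, the 5 subunits of the replication factor C clamp loader (RFC1 to RFC5) and the 4 subunits of the DNA polymerase alpha-primase complex (POLA1, POLA2, PRIM1 and PRIM2). They were followed in A549, an established human lung adenocarcinoma line, on Affymetrix arrays of total RNA. The KD group (3 arrays) received a lentiviral short hairpin RNA against MRPL35, which encodes a mitochondrial ribosomal protein, and the NC group (3 arrays) a lentiviral control hairpin. Both groups therefore carried a lentivirus and differed in the hairpin, and no drug, dose or time after infection is given in the labels. The labels do not say how many hairpins were used, whether the cells were a pool or a clone, or whether a group's 3 samples were separate cultures. The p-values therefore cover the spread among these arrays alone, and that spread may be technical. Members were all probe sets whose platform annotation gives exactly 1 gene symbol, equal to 1 of these 10 genes. This gave 22 of the 45278 single-symbol probe sets, and 10 of 18244 genes.

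DNA polymerases can only extend an existing strand. Primase lays down a short RNA primer, polymerase alpha lengthens it with DNA, and the clamp loader then opens the PCNA ring and closes it around the primed DNA, where PCNA holds the replicative polymerases delta and epsilon. On the lagging strand this is repeated for every Okazaki fragment. RFC1 is the large subunit that makes the loader specific for replication, whereas RFC2 to RFC5 are shared with other loaders built on RAD17, CHTF18 or ATAD5. Many genes of DNA replication are transcribed mainly in cells that enter S phase, through E2F transcription factors, and PCNA is in wide use as a marker of proliferating cells.

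Because 9 of the 10 genes were lower in KD (values below), the start sites of the members were set side by side. The promoter windows, from RefSeq on GRCh38.p14, run from 250 bases before to 50 bases after a start site. All 10 genes had a window, and PCNA and PRIM2 had 2 each, which makes 12. They were searched on both strands for 4 words of the E2F type. These were TTCCCGC, which 6.55% of all promoter windows hold, TTCGCGC, which 2.24% hold, TTGCCGC, in 2.39% of windows, and TTGGCGC, in 3.04%. CCAAT was searched as well. Shown are the windows of the 5 genes with the largest falls, of PCNA, which fell least among the genes that passed the test, and of RFC1, which did not pass. Capitals mark the E2F-type words, on either strand, and CCAAT is left in lower case.

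PRIM1, chr12:56752274-56752573, minus strand: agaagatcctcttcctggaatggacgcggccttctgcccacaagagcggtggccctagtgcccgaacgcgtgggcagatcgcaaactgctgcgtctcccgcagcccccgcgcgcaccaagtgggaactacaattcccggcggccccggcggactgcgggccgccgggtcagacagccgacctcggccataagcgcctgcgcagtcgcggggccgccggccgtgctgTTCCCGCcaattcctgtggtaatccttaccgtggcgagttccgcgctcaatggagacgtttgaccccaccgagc
RFC3, chr13:33817899-33818198, plus strand: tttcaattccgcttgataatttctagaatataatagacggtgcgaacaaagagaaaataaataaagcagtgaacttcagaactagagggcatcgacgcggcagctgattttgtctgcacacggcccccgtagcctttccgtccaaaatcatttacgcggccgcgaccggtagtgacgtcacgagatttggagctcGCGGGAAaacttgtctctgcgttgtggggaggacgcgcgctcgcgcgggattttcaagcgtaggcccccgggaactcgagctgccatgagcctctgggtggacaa
RFC4, chr3:186806433-186806732, minus strand: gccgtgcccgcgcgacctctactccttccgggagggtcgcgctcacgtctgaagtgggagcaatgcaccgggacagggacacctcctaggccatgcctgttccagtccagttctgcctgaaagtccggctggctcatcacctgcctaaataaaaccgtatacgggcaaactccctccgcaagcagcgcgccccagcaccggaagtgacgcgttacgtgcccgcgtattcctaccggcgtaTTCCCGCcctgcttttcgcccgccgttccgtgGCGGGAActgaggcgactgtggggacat
RFC5, chr12:118016453-118016752, plus strand: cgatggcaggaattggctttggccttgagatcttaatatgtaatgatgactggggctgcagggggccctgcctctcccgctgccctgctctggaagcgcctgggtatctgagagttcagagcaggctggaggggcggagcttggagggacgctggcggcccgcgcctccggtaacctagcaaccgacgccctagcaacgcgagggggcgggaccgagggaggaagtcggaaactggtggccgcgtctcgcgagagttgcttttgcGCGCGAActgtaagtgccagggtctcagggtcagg
POLA1, chrX:24693668-24693967, plus strand: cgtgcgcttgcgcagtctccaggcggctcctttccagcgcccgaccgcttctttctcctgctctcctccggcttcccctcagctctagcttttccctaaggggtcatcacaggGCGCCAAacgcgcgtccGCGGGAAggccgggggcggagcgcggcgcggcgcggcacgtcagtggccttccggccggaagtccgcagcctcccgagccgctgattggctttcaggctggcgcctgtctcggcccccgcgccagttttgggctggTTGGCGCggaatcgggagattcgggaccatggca
PCNA, upstream start, chr20:5126573-5126872, minus strand: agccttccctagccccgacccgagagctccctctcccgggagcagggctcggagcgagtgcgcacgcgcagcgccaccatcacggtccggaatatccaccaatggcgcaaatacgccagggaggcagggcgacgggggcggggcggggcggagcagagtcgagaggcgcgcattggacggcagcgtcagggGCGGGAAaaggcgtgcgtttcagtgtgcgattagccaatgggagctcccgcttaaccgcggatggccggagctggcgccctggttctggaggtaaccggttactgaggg
PCNA, downstream start, chr20:5119909-5120208, minus strand: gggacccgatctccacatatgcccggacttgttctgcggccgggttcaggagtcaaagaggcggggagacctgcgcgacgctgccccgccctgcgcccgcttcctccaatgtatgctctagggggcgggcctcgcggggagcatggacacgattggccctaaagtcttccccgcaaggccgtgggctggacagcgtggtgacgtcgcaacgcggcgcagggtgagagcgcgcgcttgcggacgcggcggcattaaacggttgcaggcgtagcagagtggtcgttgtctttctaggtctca
RFC1, chr4:39366313-39366612, minus strand: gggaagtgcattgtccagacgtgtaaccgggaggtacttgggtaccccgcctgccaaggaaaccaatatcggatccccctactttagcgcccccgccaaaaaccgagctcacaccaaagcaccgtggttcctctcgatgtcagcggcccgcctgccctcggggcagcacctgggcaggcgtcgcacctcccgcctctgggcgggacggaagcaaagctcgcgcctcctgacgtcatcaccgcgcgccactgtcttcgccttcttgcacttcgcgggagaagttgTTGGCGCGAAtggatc

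An E2F-type word was present in 9 of the 12 windows, 1 for each gene but PRIM2, against 13.0% of the 35116 promoter windows of all genes. Among windows with a G+C content of 60 to 70% the share was 19.7%. The member windows had a median G+C content of 64.7%, but ran from 38.3 to 72.0%, so some lie outside that band. RFC1 holds TTGGCGC and, overlapping it on the other strand, TTCGCGC, from 34 to 43 bases after the first base of its transcript. The gene that did not pass the test thus carries these letters as well. In turn PRIM2, with no such word in either of its windows, was 2.61-fold lower in KD. In RFC3 the word lies 55 to 49 bases before the start, in PRIM1 24 to 18 bases before it, where its last base is the first of a CCAAT, and RFC4 has TTCCCGC on both sides of the start. The upstream PCNA window holds 1 word and 3 CCAAT, and the downstream window no word and 2 CCAAT. The word CCAAT was found in 6 member windows and in 34.6% of all. Over the other genes measured on the arrays, a word was found in 23.7% of 3361 windows of genes that were lower in KD, 15.9% of 4038 of genes that were higher and 14.5% of 13085 of genes that did not pass. The median G+C content of these windows also differed, at 64.0%, 65.7% and 61.0% in that order. These are matches of letters in a short window, not binding sites, and binding was not measured.

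The deposited values are used as log2 probe-set values, and changes are KD minus NC on that scale. Each gene is first given by its brightest probe set, and differences were tested with limma across all 18244 genes with Benjamini-Hochberg adjustment at a threshold of 0.05. MRPL35 was lower in KD by this measure, at 6.49, 6.44 and 6.56 in the KD arrays against 8.16, 8.05 and 8.36 in the NC arrays. That is a change of -1.69 ± 0.096 (log2 change ± standard error, limma adjusted p = 3.77e-06). Its other probe sets also passed as lower but differed in size, at -0.42, -1.37 and -1.98. The smallest of these left 74.8% of the control signal (limma adjusted p = 0.032 over all probe sets). Here and below a group's values follow the order of its replicate numbers. The second principal component, with 11.8% of the variance, set NC replicate 2 apart, and the 9 genes that fell also did so without it. For RNA quality, the 3' ACTB control probe set exceeded the 5' one by 0.589 to 0.677 in KD arrays and by 0.491 to 0.654 in NC arrays (log2), which overlap. Of 11 measured markers of the A549 and airway epithelial type 10 were above the median of gene means, 6.21, with EPCAM just below it. Of the 11, 8 passed the test as higher in KD and 0 as lower, where 17.6% of all genes were higher and 15.9% lower. Their changes ran from 0.094 to 1.31, the largest in CDH1. Of 14 markers of leukocytes, endothelium and fibroblasts 1 was above that median, CD79A, and 1 was higher in KD, CD14. The leukocyte marker PTPRC read 2.33 to 2.62 in all 6 arrays. The part of these shifts in the members' changes was not tested.

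Of the 10 genes, 9 were lower in KD and 0 were higher, where 15.9% of all genes tested were lower and 17.6% higher. The median change of the 10 was -1.40, against -0.018 for all genes. These genes were chosen with earlier results of these data known, so the counts describe them and test nothing. In all 10, including RFC1, every KD array read below every NC array, as in 21.5% of all genes. The falls ranged from 1.37-fold (PCNA) to 3.69-fold (PRIM1). In a culture, fewer cells in S phase and less of each RNA per cell cannot be told apart from these values. The array centring sets the zero of these changes, and the median of all genes lay between -0.040 and 0.029 under the alternatives run.

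**Figure D1:**
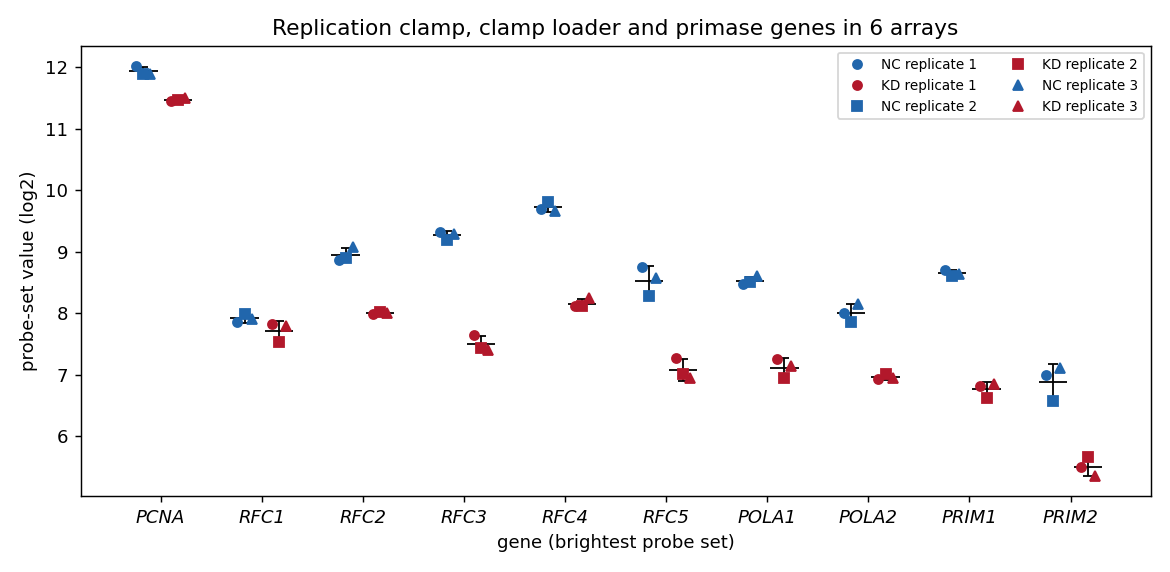
Log2 value of the brightest probe set of each gene in each array, with replicates as symbols, NC in blue and KD in red, and bars for the mean ± SD of 3 arrays. KD and NC are well separated for PRIM1 and RFC3, closer for PCNA, and only 0.036 apart for RFC1; heights compare arrays within a gene, not genes with each other.

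PCNA forms the ring-shaped trimer that tethers polymerases and many repair proteins to DNA. Its bright probe set read 11.44, 11.47 and 11.50 in the KD arrays and 12.01, 11.89 and 11.89 in the NC arrays. The groups did not overlap, and the nearest arrays lay 0.39 apart. PCNA was 1.37-fold lower (-0.46 ± 0.077, log2 change ± standard error, limma adjusted p = 0.00151), which left 72.7% of the control signal. Its second, dimmer probe set gave 4.59, 4.69 and 4.77 in KD against 5.11, 5.21 and 5.21 in NC, a change of -0.49 ± 0.086 (adjusted p = 0.00203 over all 49293 probe sets). Both probe sets fell, the bright one at percentile 99 of probe-set means and the dimmer one at percentile 41.3. By the size of its change PCNA ranked 1902 of 18244 genes from the largest fall, while the other 8 genes that fell ranked between 82 (PRIM1) and 627 (RFC2).

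RFC1, the large subunit that binds primed DNA and PCNA with the other subunits, was the only subunit of the loader that did not pass the test. The brightest of its 3 probe sets gave 7.82, 7.53 and 7.79 in KD and 7.85, 7.98 and 7.91 in NC, so that KD replicates 1 and 3 came close to NC replicate 1. The change of -0.21 ± 0.098 did not pass (limma adjusted p = 0.155), with a 95% interval from -0.43 to 0.017. Its other probe sets changed by -0.036 ± 0.10 and -0.063 ± 0.10 (limma adjusted p = 0.846 and 0.717), and in both the arrays of the groups overlapped. The intervals of the 3 probe sets reach no lower than -0.43, and a fall smaller than that is not excluded. In simulated data for the comparison of 18244 genes, 58.2% of changes of 0.5 were recovered. There 18044 genes were left unchanged, whereas in the data 2903 genes passed as lower and 3207 as higher. The adjustment was therefore stricter in the simulation, and its share is not the power of the test of RFC1.

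RFC2 to RFC5 are the small subunits, related ATP-binding proteins of the AAA+ family that complete the loader's ring. RFC3 read 7.64, 7.44 and 7.40 in KD and 9.32, 9.19 and 9.29 in NC. All KD arrays lay at least 1.55 below all NC arrays, and the gene was 3.42-fold lower (-1.77 ± 0.091, limma adjusted p = 2.35e-06). RFC4 read 8.12, 8.11 and 8.24 in KD and 9.69, 9.81 and 9.66 in NC, which is 2.96-fold lower (-1.56 ± 0.082, adjusted p = 2.53e-06). These values are those of each gene's brightest probe set, and the mean of each gene's probe sets, which includes the dim ones, gave smaller falls of -0.98 for RFC3 and -0.54 for RFC4, both still past the threshold. RFC5 varied more among replicates, with 7.27, 7.02 and 6.94 in KD and 8.75, 8.28 and 8.57 in NC, and was 2.74-fold lower (-1.45 ± 0.14, adjusted p = 5.46e-05). NC replicate 2 was the lowest of the NC arrays for RFC5, yet it stayed 1.0 above the highest KD array. RFC2 fell least among the small subunits, with 7.99, 8.02 and 8.0 in KD against 8.87, 8.90 and 9.08 in NC. It was 1.93-fold lower (-0.95 ± 0.084, adjusted p = 3.95e-05), and it rests on a single probe set whose x suffix marks possible hybridisation to other transcripts.

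POLA1 is the catalytic subunit of polymerase alpha and POLA2 its regulatory subunit. POLA1 read 7.25, 6.94 and 7.15 in KD and 8.47, 8.50 and 8.60 in NC, and was 2.65-fold lower (-1.41 ± 0.097, limma adjusted p = 1.11e-05). POLA2 read 6.93, 7.01 and 6.95 in KD and 8.01, 7.86 and 8.15 in NC, and was 2.06-fold lower (-1.04 ± 0.093, adjusted p = 4.13e-05). Neither gene's groups overlapped. A second POLA2 probe set, at 6.23, 6.21 and 6.16 in KD against 7.52, 7.42 and 7.72 in NC, fell by 1.35 on the log2 scale, so the probe sets of this gene differed in size and shared the direction.

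PRIM1 is the catalytic subunit of primase, which makes the RNA primer, and PRIM2 the large subunit that assists it. PRIM1 had the largest fall of the 10 genes. It read 6.81, 6.63 and 6.85 in KD and 8.71, 8.60 and 8.64 in NC, a gap of 1.74 between the nearest arrays, and was 3.69-fold lower (-1.89 ± 0.088, limma adjusted p = 1.71e-06), which left 27.1% of the control signal. PRIM2 read 5.50, 5.66 and 5.36 in KD and 7.0, 6.57 and 7.11 in NC, and was 2.61-fold lower (-1.38 ± 0.15, adjusted p = 0.000104). NC replicate 2 was the lowest NC array here too, and the groups did not overlap. The brightest PRIM2 probe set carries an s suffix, which marks a match to several transcripts, and the annotation holds a pseudogene named for PRIM2, PRIM2BP. Its other, dim probe set has no such suffix and fell by 1.24 ± 0.14 on the log2 scale.

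Over all 22 probe sets, 15 were lower in KD, 0 were higher and 7 did not pass. Among the 49293 probe sets tested 14.1% were lower and 16.5% higher. In 16 of the 22 every KD array read below every NC array, as in 20.0% of all probe sets. No filter on low values was used, so every member probe set entered the test. Besides the 3 of RFC1, those that did not pass were 2 of the 4 of RFC3 and 2 of the 3 of RFC4, all dim. The RFC4 pair, annotated to the same transcript, read 2.34 to 2.92 over the 6 arrays, near the lowest value of the whole table, 2.05, and changed by -0.042 and -0.021. The dim RFC3 probe sets read 3.84 to 4.21 and 2.78 to 3.04 and changed by -0.17 and -0.0067. The second bright RFC3 probe set fell by 1.95 on the log2 scale, to 25.8% of control, the largest fall of the 22. All 3 RFC5 probe sets fell, by 1.14, 1.20 and 1.45 on the log2 scale. Whether the dim probe sets read any transcript in these cells was not tested.

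**Figure D2:**
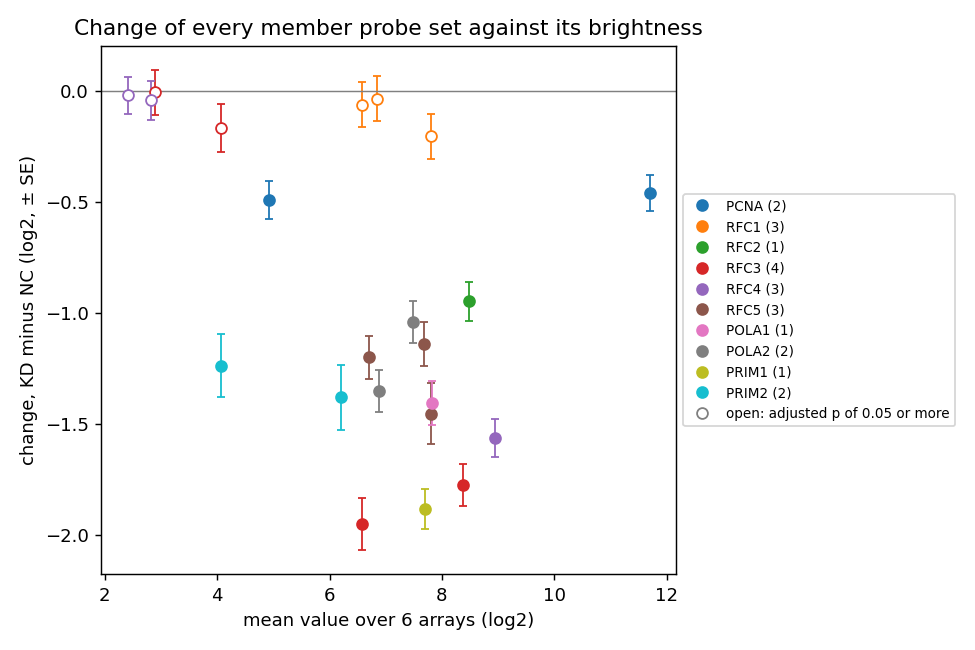
Log2 change, KD minus NC ± SE (3 arrays a group), of each of the 22 probe sets against its mean value over 6 arrays; colours are genes, numbers in the legend count probe sets, and open circles did not pass. The open circles are the 3 of RFC1, at means of 6.57 to 7.81, and the 4 of RFC3 and RFC4 at means up to 4.06, while the dim probe sets of PCNA and PRIM2 fell.

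The subunits of each complex were then compared with one another. For each gene, its log2 value minus the mean of the other genes of its complex was taken within each array and compared between groups, which gives 9 comparisons. They are not independent, since each gene also enters the mean used for the others of its complex. RFC1 shifted by 1.23 ± 0.11 relative to RFC2 to RFC5, a 2.35-fold shift, from -1.20 ± 0.13 (SD, n = 3) in NC to 0.027 ± 0.14 in KD. The arrays did not overlap, and the exact permutation test gave p = 0.1, the smallest that 3 against 3 arrays allow (adjusted 0.15 over the 9), so no comparison here can pass 0.05. RFC3 shifted by -0.73 ± 0.058 relative to the other loader genes, RFC4 by -0.47 ± 0.11, RFC5 by -0.33 ± 0.17 and RFC2 by 0.30 ± 0.098. Of these only RFC5 had overlapping arrays. RFC1, which changed least, is part of the mean used for RFC2 to RFC5, and its small change makes their shifts more negative. Shifts among RFC2 to RFC5 alone were not computed. With the mean of each gene's probe sets in place of the brightest, which brings in the dim ones of RFC3 and RFC4, RFC4 turned to 0.28 and RFC2 to -0.23. With that mean the shift of RFC1 was smaller at 0.83 and that of RFC3 at -0.26, and the shift of RFC5 was larger at -0.62, without overlap. Without NC replicate 1 the RFC5 shift was -0.21.

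In polymerase alpha-primase, PRIM1 shifted by -0.61 ± 0.11 relative to the other 3 genes and POLA2 by 0.52 ± 0.061 (0.34 with the mean of each gene's probe sets), both without overlap between the arrays (exact permutation p = 0.1). POLA1 (0.028 ± 0.13) and PRIM2 (0.064 ± 0.18) shifted by less than the spread between arrays. Both catalytic subunits are among these 4 genes, PRIM1 with the largest fall of the complex and POLA1 near its middle.

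**Figure D3:**
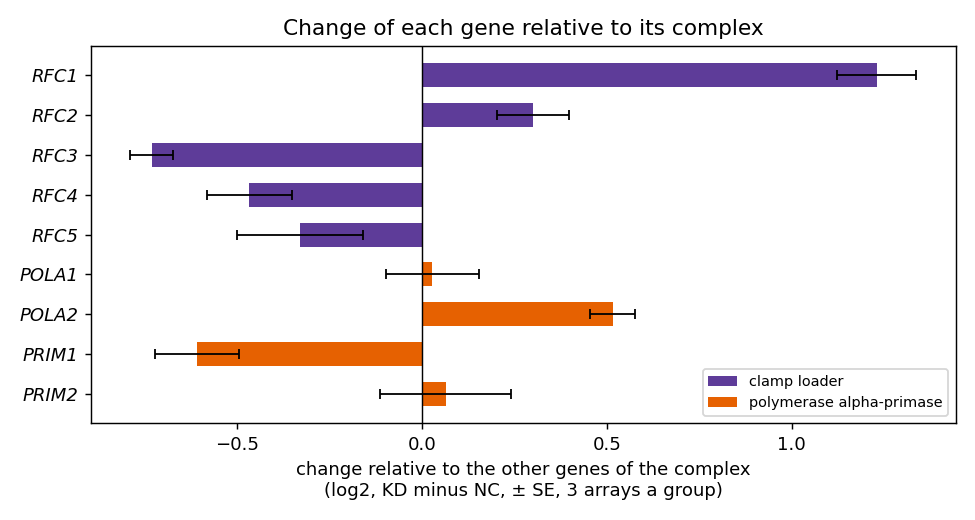
Log2 change of each gene relative to the mean of the other genes of its complex, KD minus NC; bars are means over 3 arrays a group with the standard error, the clamp loader in purple and polymerase alpha-primase in orange. RFC1 stands at 1.23 and RFC3 at -0.73 within the loader, and POLA2 at 0.52 and PRIM1 at -0.61 within the primase complex.

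The polymerase and the enzymes that finish Okazaki fragments moved mostly with the members. Of 13 genes of strand synthesis and fragment processing, 10 fell and 2 rose at a median change of -0.77. Counts here and in the lists below stand against 15.9% of all genes lower and 17.6% higher, at a median change of -0.018. The lists were chosen with earlier results of these data known, so these counts describe them and test nothing. POLD3, an accessory subunit of polymerase delta, was 3.62-fold lower (-1.86 ± 0.10, limma adjusted p = 3.55e-06), and FEN1, the nuclease that trims fragment ends, 3.57-fold lower (-1.84 ± 0.12). DNA2, a helicase-nuclease that cuts long flaps, fell by 1.29 ± 0.11 and RPA2, of the single-strand binding protein RPA, by 0.84 ± 0.087. LIG1, the ligase that seals the fragments, fell by 0.45 ± 0.11 (adjusted p = 0.0119), a call that was lost with a treat test against a change of 0.2. POLD4 and RNASEH2C were the pair that rose, by 0.61 ± 0.089 and 0.80 ± 0.078, and the mean of its probe sets gave RNASEH2C a smaller rise of 0.30. RPA1, counted among the falls at -0.32, lost its call with the treat test and with x and s probe sets left out (-0.20). LIG1, POLD4, RNASEH2C and RPA1 were named after their values were seen.

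Of 10 genes of other clamps, clamp loaders and unloaders, 6 fell and 0 rose, and the median change was -0.31. ATAD5, which takes PCNA off DNA, was 3.00-fold lower (-1.58 ± 0.10, limma adjusted p = 8.06e-06), and USP1, which removes ubiquitin from PCNA, 2.20-fold lower (-1.13 ± 0.087). CHTF18, the large subunit of the loader that acts in sister chromatid cohesion, fell by 0.81 ± 0.088, and the mean of its probe sets gave a smaller fall of -0.36. RAD9A, of the checkpoint clamp, fell by 0.47 ± 0.10, a call that was lost with the treat test. RAD17, which loads that clamp, did not pass (0.073 ± 0.11, adjusted p = 0.695; named after its value was seen). The large subunits that share RFC2 to RFC5 therefore read -0.21 (RFC1), 0.073 (RAD17), -0.81 (CHTF18, or -0.36 with that mean) and -1.58 (ATAD5) by their brightest probe sets, and differences among them were not tested. With that treat test the falls in this list numbered 3, since DSCC1 (-0.36) and RAD1 (-0.26) lost their calls as well. RAD1 also lost its call when any single array other than NC replicate 2 was left out. The mean of its probe sets gave DSCC1 a larger fall of -1.27. Both genes were named after their values were seen.

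Among 9 partners of polymerase alpha and primase, 6 fell and 2 rose, and the median change was -1.04. CLSPN (Claspin, -1.71 ± 0.092), TIPIN (-1.44 ± 0.085) and TIMELESS (-1.34 ± 0.093) belong to the fork protection machinery, and WDHD1 (-1.61 ± 0.18) ties polymerase alpha to the helicase (limma adjusted p between 3.01e-06 and 0.000168). STN1 and TEN1, named after their values were seen, rose by 1.27 ± 0.090 and 1.11 ± 0.084. They belong with CTC1, which did not pass (0.034 ± 0.078), to the CST complex that brings polymerase alpha-primase to telomere ends.

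Of 24 PCNA-binding or PCNA-modifying proteins, 14 fell and 3 rose, and the median change was -0.70. The largest changes were in DTL, which marks proteins bound to PCNA for destruction (4.05-fold lower, -2.02 ± 0.10, limma adjusted p = 2.24e-06), UHRF1, of maintenance DNA methylation (-1.65 ± 0.12), PARPBP, which limits recombination (-1.55 ± 0.095), and PCLAF, the PCNA clamp-associated factor (-1.49 ± 0.078). The 3 that rose, named after their values were seen, were CDKN1A (1.04 ± 0.081), the CDK inhibitor p21 that also binds PCNA, the translesion polymerase POLH (0.81 ± 0.089, and 0.34 with x and s probe sets left out) and the mismatch repair gene MSH3 (0.45 ± 0.077). In the same list RAD18, the ligase that ubiquitinates PCNA, also named after its value was seen, fell by 1.20 ± 0.11.

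**Figure D4:**
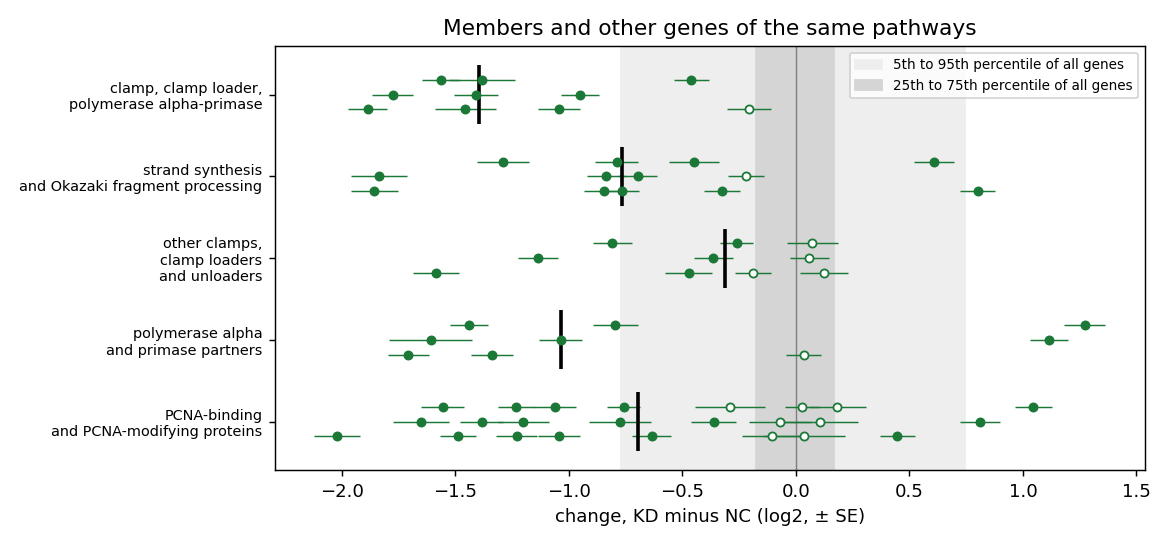
Log2 change, KD minus NC ± SE, of the 10 members and of 4 lists of pathway genes; filled circles passed the test, black bars are medians, and grey bands cover the 5th to 95th and 25th to 75th percentiles of all 18244 genes. Of the members, 8 lie left of the wider band, which starts at -0.77, with PCNA at -0.46 and RFC1 at -0.21 inside it.

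The pattern of the members over the 6 arrays was summarised as the mean of the 10 after each was centred on its own mean. Over these 6 points, which share 2 groups and so mostly restate the group difference, Pearson's r with that mean was 0.976 to 0.998 for 9 members and 0.724 for RFC1. The 5 other genes of 18244 with the highest r, all between 0.9996 and 0.9999, were C4orf46, MRPL46, TIPIN, ZWILCH and FIGNL1. MRPL46 is a protein of the mitochondrial ribosome, ZWILCH acts at the kinetochore, TIPIN at the replication fork and FIGNL1 in recombination. MRPL46 read 7.99, 7.91 and 7.96 in KD and 9.19, 9.08 and 9.24 in NC. Among the NC arrays replicate 2 was the lowest for all 5. They were picked for their likeness to the members over these same arrays, so a shared order of arrays follows from that choice.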

How the data were processed

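Total RNA of 6 samples (3 KD, 3 NC) was labelled as biotinylated cRNA and hybridised to Affymetrix arrays, per the labels' protocols. The authors deposited 1 table with 49395 probe sets, taken as log2 values; the log base was read from the range (2.05 to 14.32), and summarisation and normalization are not given in the sources used here. How far they compress fold changes is unknown. No scanner file was used, and no background is known per probe set. The source names of NC replicates 2 and 3 give other line numbers than their characteristics, which say A549. Genes come from the platform annotation, and a gene is its single-symbol probe set with the highest mean.

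Tests used limma 3.58.1 in R 4.3.3 (lmFit, eBayes, two-sided, group as the only term, 4 residual and 4.67 prior degrees of freedom for genes) over 18244 genes, or over 49293 probe sets without the 102 controls, with no filter. Figures were drawn with matplotlib 3.10.9. Named were all members, MRPL35, up to 4 genes of each list with the largest passing changes and no overlap, and the 5 genes most alike; others are said to be chosen after their values were seen. Members and lists were chosen with earlier results of these data known. The fit was tested on simulated data: all changes of 1 and 2 were recovered among 18244 genes, with 10 of 18044 unchanged genes called. Alternatives were quantile normalization, median centring, trend and robust fitting, array weights, a replicate block, averaged probe sets per gene, leaving out x and s probe sets, the dimmest 40%, or each array, and a treat test. The number of arrays limits the precision.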

Additional observations from a re-analysis of the deposited data

How the results depend on the processing

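Under all alternatives run, the 9 genes kept their fall and their side of the threshold wherever they were measured, and RFC1 did not pass (limma adjusted p from 0.0883 to 1.0). RFC2 has no value with x and s probe sets left out, where 8 of 9 genes were lower. The treat test gave 1826 genes lower and 1931 higher, against 2903 and 3207. It left 3 falls among other clamps and loaders, where RAD9A (-0.47), DSCC1 (-0.36) and RAD1 (-0.26) no longer passed. Of strand synthesis, LIG1 (-0.45) and RPA1 (-0.32) no longer passed under it, which left 8 falls. RPA1 also did not pass with x and s probe sets left out or without KD replicate 3. The mean of probe sets gave the list of other clamps and loaders 1 rise. With that mean RFC3 (-0.98), RFC4 (-0.54) and CHTF18 (-0.36) fell by less, DSCC1 (-1.27) fell by more, and RNASEH2C (0.30) and STN1 (0.65) rose by less. RFC2 turned to -0.23 and RFC4 to 0.28 relative to the rest of the loader under it. POLA1, near 0 relative to the rest of its complex, turned to -0.019 without x and s probe sets and ranged from -0.040 to 0.13 with an array left out, and PRIM2 from -0.062 to 0.16.

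Probe sets that did not pass changed sign around 0. The dimmest RFC3 probe set turned to 0.011 with quantile normalization and 0.037 with array weights, and ranged from -0.068 to 0.066 with an array left out. Array weights gave 0.0040 and 0.0015 for the dim RFC4 pair, which ranged from -0.085 to 0.0049 and from -0.063 to 0.0024 with an array left out. A probe set of RFC1 ranged from -0.095 to 0.058 in this way. The cause was not tested.

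Same-numbered KD and NC arrays deviated together at r = 0.254, 0.265 and -0.0963, so the numbers were not taken as pairs. With the replicate block 9 member genes and 15 member probe sets were lower, and 3014 of all genes were lower and 3262 higher. Values near the lowest of the table carry little information on change.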

Other observations

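In 2 small complexes next to the members, RNase H2 and polymerase delta, some subunit genes rose while others fell, and in the CST complex STN1 and TEN1 rose. STN1 read 8.54, 8.59 and 8.65 in KD and 7.29, 7.20 and 7.46 in NC, and TEN1 8.07, 8.10 and 8.17 against 7.0, 6.90 and 7.10, without overlap, while the third CST gene, CTC1, did not pass. The mean of its probe sets gave STN1 a smaller rise of 0.65 on the log2 scale. In RNase H2, which removes RNA from DNA, the catalytic gene RNASEH2A fell by 0.84 and RNASEH2B by 0.77 on the log2 scale, while RNASEH2C rose by 0.80, or by 0.30 with the mean of its probe sets (brightest probe sets, limma adjusted p = 8.34e-05, 6.86e-05 and 6.83e-05). In polymerase delta, POLD3 fell by 1.86 and POLD1, the catalytic subunit, by 0.79, POLD2 did not pass (-0.22, adjusted p = 0.0666), and POLD4 rose by 0.61. These genes were picked after their values were seen, and differences between subunits were not tested here.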
